A study of Chlamydomonas reinhardtii with 12 samples.

Results

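Chloroplasts multiply by splitting, and 6 nuclear genes of the machinery that splits them were followed in the green alga Chlamydomonas reinhardtii: FTSZ1, FTSZ2, MIND1, MINE1, MINE2 and ARC6. They were found by their symbols in the expression table of genome version 5.5, each at 1 locus with 1 transcript, among 17741 loci in all. Of these loci 10915 reached at least 1 FPKM (fragments scaled to the length of the transcript and to the number of mapped fragments) in at least 1 group, and all 6 genes were among them. The genes were chosen for the way they changed in these same samples, so their levels, their changes and the authors' calls for them are given as a description.

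Plastids descend from cyanobacteria and still divide with parts of the bacterial machinery. FtsZ proteins, relatives of tubulin, assemble into a ring inside the plastid at the plane of division, MinD and MinE keep that ring at its proper site, and the inner envelope protein ARC6, known from Arabidopsis, tethers the ring to the membrane. Chlamydomonas has a single large chloroplast, which has to divide along with the cell.

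The knockdown line amiCYG12 was set against the wild type CC-124. amiCYG12 is a transformant in the CC-124 background that carries an artificial microRNA against CYG12, the gene of a soluble guanylate cyclase, an enzyme that makes the signalling molecule cyclic GMP. Both strains were grown in acetate medium (TAP) on a shaker in continuous light and then treated in the same 3 ways. In the anoxia incubation they spent 6 h in the dark in sealed flasks, in the dark aerated incubation 6 h in the dark in open beakers, and in the standard incubation they were sampled at the start, in the light (20 µmol photons per square metre per second) and with air. Anoxia therefore differs from the standard incubation in light, oxygen, time and the sealed flask. From the dark aerated incubation it differs in oxygen, by the labels, and in the vessel, a sealed flask against an open and well stirred beaker. The dark aerated incubation in turn differs from the standard one in light, time and the open beaker. Each of the 6 groups had 2 biological replicates, 12 poly(A) RNA libraries in all. A single knockdown line stands for the knockdown, so what belongs to the microRNA and what belongs to that line cannot be told apart.

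The deposited table holds 1 pooled FPKM value per group, so the levels and folds printed here carry no replicate error, and the depth of the libraries is unknown. The only tests are the authors' own, made with Cuffdiff on the 2 replicates per group. A gene is called here where the authors' deposited table says yes, which it does at q-values (p-values adjusted for multiple testing) of up to 0.0499. As a check of the strain, CYG12 (Cre07.g320750, chromosome 7) had 0.429, 0.353 and 0.158 FPKM in amiCYG12 after anoxia, after aerated darkness and in the standard incubation. In the wild type it had 2.46, 3.23 and 0.132 FPKM in the same order. The authors' deposited table called CYG12 lower in the knockdown line after both dark incubations and did not test it in the standard one, where CYG12 was low in both strains.

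All 6 genes had the same extremes. Each was highest in amiCYG12 after 6 h of aerated darkness and lowest in the wild type after 6 h of anoxia. Of the 10915 measured loci 6.39% had this pair of extremes, 15.9% had the first and 20.4% had the second. The genes are expressed at a low level: the highest value of any of them was 14.6 FPKM, and in the wild type after anoxia they all lay between 0.0931 and 0.305 FPKM. Because the RNA was taken from whole cultures, fewer cells in a state that expresses these genes and less of their RNA per cell cannot be told apart.

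The ring genes come first. FTSZ1 (Cre02.g118600, chromosome 2, 6763464 to 6767532) and FTSZ2 (Cre02.g142186, chromosome 2, 8693839 to 8698668) encode the 2 FtsZ proteins, which in plants copolymerise in the ring. FTSZ1 had 1.05, 5.64 and 2.53 FPKM in amiCYG12 after anoxia, after aerated darkness and in the standard incubation, against 0.202, 1.77 and 2.80 FPKM in the wild type in the same order. FTSZ2 had 0.384, 2.47 and 1.38 FPKM in amiCYG12, against 0.119, 1.00 and 1.81 FPKM in the wild type. In these pooled values both genes were therefore close in the strains before the dark incubations and apart after them. For FTSZ2 after anoxia both levels were below 1 FPKM, and the authors did not test that difference. FTSZ1 was the more abundant per length in every group, at 2.74, 2.29 and 1.84 times the level of FTSZ2 in amiCYG12 and 1.70, 1.77 and 1.55 times in the wild type. In amiCYG12 that ratio was widest after anoxia and in the wild type it was widest after aerated darkness.

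MIND1 (Cre12.g522950, chromosome 12, 4632807 to 4635924) encodes MinD, an ATPase that in bacteria and in Arabidopsis prevents FtsZ rings from forming away from the middle. It was the most abundant of the 6 genes in all 6 groups. It had 1.83, 14.6 and 5.03 FPKM in amiCYG12 after anoxia, after aerated darkness and in the standard incubation, against 0.305, 3.42 and 5.62 FPKM in the wild type. Its level per length was 1.51 to 2.59 times that of FTSZ1, lowest in the wild type after anoxia and highest in amiCYG12 after aerated darkness.

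MinE, the partner that limits where MinD acts, is encoded by a pair of genes. MINE1 (Cre17.g720350, chromosome 17, 2997084 to 2998676) had 1.24, 6.23 and 2.28 FPKM in amiCYG12, against 0.120, 1.36 and 2.82 FPKM in the wild type, again in the order anoxia, aerated darkness and standard. MINE2 (Cre03.g199450, chromosome 3, 8253408 to 8256303) had 0.615, 3.06 and 0.940 FPKM in amiCYG12, against 0.0931, 0.364 and 0.903 FPKM in the wild type. MINE1 exceeded MINE2 in every group, by 2.02, 2.04 and 2.43 times in amiCYG12 and by 1.29, 3.74 and 3.12 times in the wild type. MINE2 was also the only one of the 6 whose standard level was a little higher in amiCYG12 than in the wild type, a difference that the authors' deposited table did not call.

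ARC6 (Cre12.g488500, chromosome 12, 1354239 to 1359054) carries the symbol of the ring's membrane tether without a description in the table. It was the least expressed of the genes in 5 of the 6 groups; in the wild type after anoxia MINE2 lay lower. ARC6 had 0.378, 1.03 and 0.455 FPKM in amiCYG12 after anoxia, after aerated darkness and in the standard incubation, against 0.0972, 0.173 and 0.521 FPKM in the wild type. Like MINE2, it reached 1 FPKM in amiCYG12 after aerated darkness only. Those 2 genes are counted as measured because of the group in which they are high, so they had to differ between groups, and their passing supports nothing.

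Between the extremes the order of the groups differed between the genes. For FTSZ1, FTSZ2, MIND1 and MINE1 the standard wild type came next after the peak, then standard amiCYG12, then the wild type after aerated darkness and then amiCYG12 after anoxia. In MINE2 and ARC6 amiCYG12 after anoxia stood above the wild type after aerated darkness, and in MINE2 standard amiCYG12 also stood above the standard wild type. The standard groups of both strains are neighbours in every gene's order and were not called different for any, and without replicate values no finer statement on neighbouring levels can be made.

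Anoxia set against aerated darkness asks what the loss of oxygen in a sealed flask adds to 6 h without light. In amiCYG12 all 6 genes were lower after anoxia. MIND1 stood 8.00-fold lower, FTSZ2 6.42-fold, FTSZ1 5.37-fold, MINE1 5.02-fold, MINE2 4.97-fold and ARC6 2.72-fold. The authors' deposited table called 5 of the 6 lower, against 12.9% of all loci tested called lower in this comparison, a share from which nothing is read because the genes were chosen on it. The uncalled one is ARC6, whose q of 0.0500076 in the authors' deposited table is just past the threshold. The median change of the 6 genes was -1.51 on the log2 scale of FPKM + 1, and that of all measured loci was -0.02.

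For 4 of the genes the step was larger as a ratio in the wild type and started from a lower level. MINE1 stood 11.4-fold lower after anoxia than after aerated darkness, MIND1 11.2-fold, FTSZ1 8.75-fold and FTSZ2 8.41-fold. In the authors' deposited table these 4 were called lower, with log2 changes of -3.51, -3.49, -3.13 and -3.07 and q-values of up to 0.0271, where 7.96% of all loci tested were called lower. MINE2 and ARC6 were 3.91-fold and 1.78-fold lower and were not tested by the authors. At these levels an added FPKM of 1 hides most of a change: the median of the 6 genes was -0.96 on the log2 scale of FPKM + 1, against -0.02 for all measured loci.

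Aerated darkness set against the standard incubation compares 6 h in the dark in an open beaker with the start in the light, both with air. Light, time and vessel differ together here and cannot be told apart. In this comparison the strains moved apart. In amiCYG12 every gene was higher after aerated darkness than in the standard incubation. MINE2 stood 3.26-fold higher, MIND1 2.90-fold, MINE1 2.73-fold, ARC6 2.26-fold, FTSZ1 2.23-fold and FTSZ2 1.79-fold. The authors' deposited table called 4 of the 6 higher, against 4.13% of all loci tested. These were MINE2, MIND1, MINE1 and FTSZ1, with deposited log2 changes of 1.70, 1.54, 1.45 and 1.16, while ARC6 had a q of 0.0673 and FTSZ2 one of 0.0915 in the authors' deposited table.

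In the wild type every gene was lower after aerated darkness than in the standard incubation, by 1.58-fold for FTSZ1 to 3.01-fold for ARC6. None of the 6 was called in the authors' deposited table, where Cuffdiff called 6.75% of all loci tested lower. Its p-value was under 0.05 for 4 of the 6, namely FTSZ2, MINE1, MINE2 and ARC6, as it was for 18.9% of all loci tested. The lowest q among the genes was 0.0562, for ARC6, and the highest was 0.197, for FTSZ1, in the authors' deposited table. The median change was -0.48 on the log2 scale of FPKM + 1, against -0.05 for all measured loci.

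Being higher after aerated darkness in amiCYG12 and lower in the wild type was shared by 6 of 6 genes and by 2089 of the 10915 measured loci, which is 19.1%. The difference of the strains' changes, amiCYG12 minus wild type on the log2 scale of FPKM + 1, was between 0.86 for ARC6 and 1.96 for MIND1. Over all measured loci its median was -0.02, and 9 in 10 loci lay between -0.95 and 0.87, so ARC6 was inside that range and the other 5 genes were above it. The authors' deposited table holds no comparison of the strains' responses, and this difference was not tested.

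**Figure D1:**
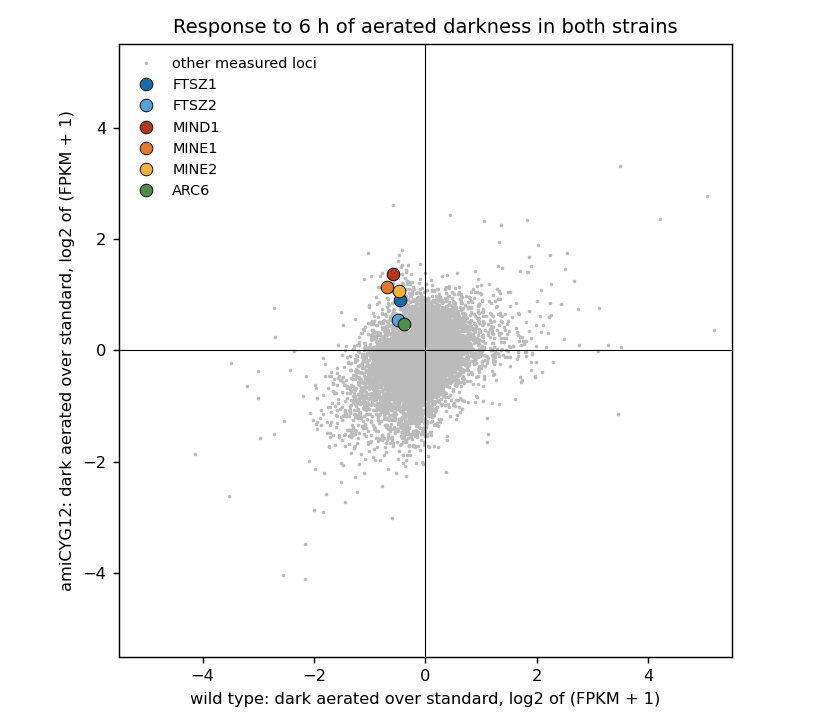
Change from the standard incubation to 6 h of aerated darkness, as log2 of the ratio of FPKM + 1, in the wild type (horizontal) and in amiCYG12 (vertical), with 1 point per measured locus and the 6 plastid division genes in colour. The 6 genes lie left of 0 (-0.69 to -0.38) and above 0 (0.48 to 1.37), and 1 other locus falls outside the axes.

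Anoxia set against the standard incubation covers the whole change from light and air to a sealed dark flask. In the wild type the 6 genes were 5.36-fold (ARC6) to 23.6-fold (MINE1) lower after anoxia, for each gene the largest fold of any comparison within a strain. MINE1 had 0.120 FPKM after anoxia against 2.82 FPKM in the standard incubation, and MIND1 had 0.305 FPKM after anoxia against 5.62 FPKM in the standard incubation. The authors' deposited table called 5 of the 6 lower, against 15.9% of all loci tested, with log2 changes of -4.56 for MINE1, -4.20 for MIND1, -3.93 for FTSZ2, -3.79 for FTSZ1 and -2.42 for ARC6. MINE2 was 9.70-fold lower and its q of 0.0516 in the authors' deposited table missed the threshold.

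The folds in amiCYG12 were smaller. The 6 genes were 1.20-fold (ARC6) to 3.59-fold (FTSZ2) lower after anoxia than in the standard incubation. The authors' deposited table called FTSZ1, FTSZ2 and MIND1 lower, 3 of the 6, against 15.7% of all loci tested. MINE1 and MINE2 had q-values of 0.207 and 0.459 there, and ARC6 was not tested. The median change was -0.67 on the log2 scale of FPKM + 1, against -0.07 for all measured loci; in the wild type these medians were -1.49 and -0.07.

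The strains set against each other within an incubation ask what the knockdown line does differently under the same treatment. In the standard incubation the levels were close, from 1.31-fold lower in amiCYG12 for FTSZ2 to 1.04-fold higher for MINE2. Cuffdiff called none of the 6 in the authors' deposited table and gave none of them a p-value under 0.05, while 10.5% of all loci tested were called in either direction.

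After aerated darkness all 6 genes were higher in amiCYG12. MINE2 had 3.06 FPKM in amiCYG12 against 0.364 FPKM in the wild type, 8.39-fold, and ARC6 had 1.03 FPKM in amiCYG12 against 0.173 FPKM in the wild type, 5.95-fold. MINE1 was 4.57-fold, MIND1 4.27-fold, FTSZ1 3.19-fold and FTSZ2 2.47-fold higher. All 6 were called higher in the authors' deposited table, against 8.2% of all loci tested, with log2 differences of 1.30 (FTSZ2) to 3.07 (MINE2) and q-values of up to 0.00561. MINE2 and ARC6, with the largest ratios, are also the 2 genes that count as measured through this group alone. The median difference was 1.42 on the log2 scale of FPKM + 1, against -0.06 for all measured loci.

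After anoxia the genes were again higher in amiCYG12, by 3.23-fold for FTSZ2 to 10.4-fold for MINE1. The authors' deposited table called MINE1, MIND1 and FTSZ1 higher, with log2 differences of 3.37, 2.58 and 2.38, which is 3 of the 6, against 5.73% of all loci tested. MINE2, 6.61-fold higher, had a q of 0.081, and FTSZ2 and ARC6 were not tested. The comparisons between strains and those between incubations share groups, so a high value in amiCYG12 after aerated darkness enters 3 of the 9, and their calls are not separate observations.

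Among themselves the genes differed in how far they moved and also in which step was larger. In the wild type ARC6 was 3.01-fold lower after aerated darkness than in the standard incubation, and 1.78-fold lower again after anoxia. For MIND1 these steps were 1.64-fold and 11.2-fold. The profiles of the 6 genes were compared by the root mean square difference of log2(FPKM + 1) over the 6 groups after each gene was centred on its own mean. FTSZ1 and MINE1 were nearest, at 0.13, and MIND1 and ARC6 farthest apart, at 0.86. ARC6 is flat on that scale because all its values are low; as a plain ratio its highest group was still 10.6 times its lowest, against 20.7 times for FTSZ2, 27.9 for FTSZ1, 32.9 for MINE2, 47.9 for MIND1 and 52.0 for MINE1.

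The same measure names the genes with the profiles most like each one, among genes with a symbol and at least 5 FPKM in a group. Nearest to MIND1 was CDKB1, a plant-specific cyclin-dependent kinase, at a distance of 0.15, with 1.45, 11.6 and 4.74 FPKM in amiCYG12 and 0.166, 2.03 and 4.40 FPKM in the wild type. MINE1 was nearest to CYCA1, an A-type cyclin, at 0.13, and FTSZ1 to NSG16/CKS1, a regulatory subunit of cyclin-dependent kinases, at 0.19. RIR2A/NSG2, the R2 subunit of ribonucleotide reductase, which supplies deoxyribonucleotides, came next for MIND1, MINE1 and FTSZ1, at 0.18, 0.19 and 0.22. The next were DUD1/NSG10 for MIND1 at 0.24, NSG16/CKS1 for MINE1 at 0.22 and LCIC, a protein induced by low carbon dioxide, for FTSZ1 at 0.23. CDKB1, CYCA1 and RIR2A/NSG2 reached 5 FPKM in amiCYG12 after aerated darkness alone. They could enter this comparison only by being high where MIND1, MINE1 and FTSZ1 peak, so that part of their likeness supports nothing.

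The other 3 genes had other neighbours. FTSZ2 was nearest to TSC1 at 0.13, the translation initiation factor subunit EIF3A at 0.14 and the prefoldin subunit PFD6 at 0.15. MINE2 was nearest to LCI20, a 2-oxoglutarate/malate translocator, at 0.14, MRPS34 at 0.21 and SDR26/TIC32-3 at 0.23. SDR26/TIC32-3 also reached 5 FPKM in amiCYG12 after aerated darkness alone. For ARC6 the nearest were the RNA polymerase I subunit RPA12 at 0.06, the ferredoxin FDX3 at 0.10 and the CTP synthase PYR7 at 0.10. These last are far more abundant and changed little, RPA12 between 16.2 and 28.8 FPKM, and with 1 FPKM added ARC6 is as flat.

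**Figure D2:**
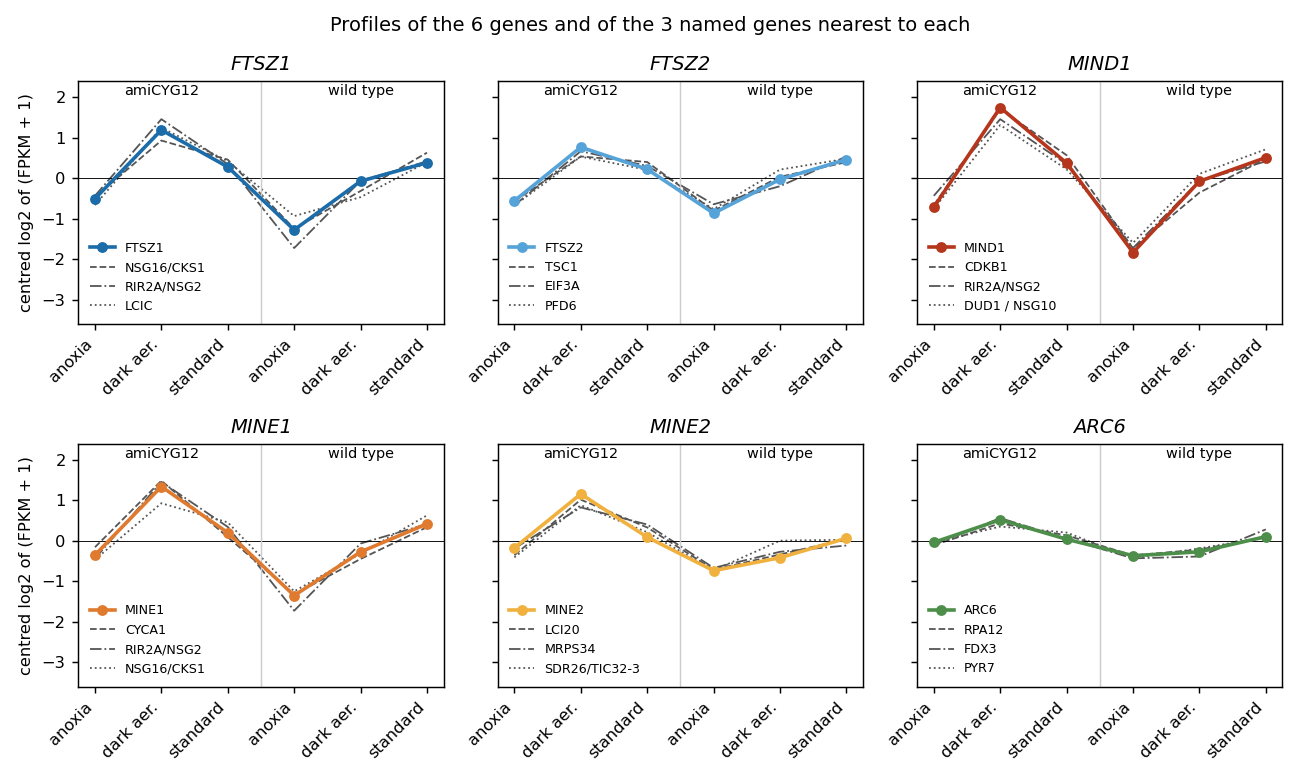
Profile of each of the 6 genes (coloured line) and of the 3 named genes nearest to it (grey lines) over the 6 groups, as log2(FPKM + 1) centred on the gene's mean. CDKB1 runs within a root mean square difference of 0.15 of MIND1 and CYCA1 within 0.13 of MINE1, while the ARC6 panel is nearly flat.

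Chloroplast division is tied to the cell cycle, so genes of the mitotic cycle and of DNA replication were listed from textbook knowledge, with earlier results of these data known. Of this list 42 loci were found. Only 31 of them reached 1 FPKM in a group, and 5 of the 31 did so in amiCYG12 after aerated darkness alone, so those 5 had to be high there. After aerated darkness the authors' deposited table called 19 of the 36 it tested higher and 1 lower in amiCYG12 against the wild type. Of all loci tested 8.2% were called higher. This share, like the others beside this list, is over measured loci only, whereas the counts of the list are over the loci found. Among the 31 measured ones 17 were called higher and none lower. The median difference was 0.48 over the 42 loci found and 0.74 over the 31 measured, against -0.06 for all measured loci (log2 of FPKM + 1). The largest called differences were 2.06 for CDKB1, 2.00 for MCM3, a subunit of the helicase that opens DNA for replication, 1.93 for CYCA1 and 1.89 for CYCB1, a B-type cyclin. MCM3 had 6.14 FPKM in amiCYG12 and 0.791 FPKM in the wild type. The one called lower, E2FR1/E2F2, related to E2F transcription factors, had 0.0696 FPKM in amiCYG12 and 0.600 FPKM in the wild type and is named because it went the other way.

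Within amiCYG12, 14 of 35 tested were called higher and none lower after aerated darkness than in the standard incubation, against 4.13% of all loci tested called higher. They were led by CYCA1 (1.39), CYCB1 (1.31), MCM3 (1.23) and CDKB1 (1.14), and the median was 0.40 over the loci found and 0.59 over the measured ones, against -0.06 for all measured loci. The same comparison in the wild type gave 1 of 30 tested called higher (E2FR1/E2F2) and 3 called lower, NSG16/CKS1 (-0.95), CDKB1 (-0.83) and CYCA1 (-0.79). With 6.75% of all loci tested called lower, that count is near the background, and the median was -0.07 over the loci found and -0.11 over the measured ones, against -0.05. After anoxia against aerated darkness 19 of 35 tested were called lower and none higher in amiCYG12, against 12.9% of all loci tested, with CDKB1 at -2.37 and PCN1, the sliding clamp of DNA polymerase, at -1.91. For the wild type the counts were 11 of 29 tested lower and none higher, against 7.96%, with PCN1 at -1.80 and RIR2A/NSG2 at -1.66.

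After anoxia against the standard incubation 6 of 30 tested were called lower in amiCYG12, with PCN1 at -1.31 and CDKB1 at -1.23, a count near the 15.7% of all loci tested. In the wild type 10 of 30 were called lower, against 15.9%, and 1 higher (E2FR1/E2F2), with PCN1 at -2.25, CDKB1 at -2.21 and RIR2A/NSG2 at -2.14. Between the strains 11 of 28 tested were called higher and 1 lower (E2FR1/E2F2) in amiCYG12 after anoxia, against 5.73% of all loci tested called higher, led by CYCB1 (1.71) and RIR2A/NSG2 (1.29). In the standard incubation 2 of 29 tested were called higher in amiCYG12, RFC4 (1.04) and CYCD3 (0.80), and 5.49% of all loci tested were. Of the 31 measured loci 21, and of all 42 found 26, were highest in amiCYG12 after aerated darkness and lowest in the wild type after anoxia, the extremes that all 6 plastid division genes had. Of all measured loci 6.39% had these extremes; the list is not independent of the choice of those genes, 5 of its measured loci passed through the high group alone, and no test was made.

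Relatives of the outer division machinery did not share one pattern. The outer ring of dividing plastids in plants contains a dynamin-related GTPase, a protein that constricts membranes. Of the list of such relatives 9 loci were found: DRP1, DRP2, DRP3, EZY8/DRP4A, 4 dynamin-related GTPases without a symbol and MSC1, a mechanosensitive channel. Which of these dynamins, if any, acts at the chloroplast is not stated in the table. DRP2 had 5.93, 18.5 and 20.5 FPKM in amiCYG12 after anoxia, after aerated darkness and in the standard incubation, against 5.07, 15.6 and 14.8 FPKM in the wild type. DRP1 had 7.00, 17.8 and 24.4 FPKM in amiCYG12, against 6.49, 15.2 and 16.6 FPKM in the wild type. Both were called lower after anoxia than in each aerated group of the same strain and in no comparison between strains in the authors' deposited table.

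Cre10.g433050, a dynamin-related GTPase without a symbol, was called in 3 comparisons, each time in the direction of the plastid division genes. It had 1.36, 3.78 and 1.16 FPKM in amiCYG12, against 1.11, 1.37 and 1.77 FPKM in the wild type. In the authors' deposited table it was called lower in amiCYG12 after anoxia than after aerated darkness (log2 -1.47). It was called higher there after aerated darkness than in the standard incubation (1.70) or than in the wild type (1.46). Of all loci tested 12.9%, 4.13% and 8.2% were called in these directions. The 3 calls all rest on its value in amiCYG12 after aerated darkness and are not separate observations. Unlike the plastid division genes, it was higher in amiCYG12 after anoxia than in the standard incubation, a difference that was not called. EZY8/DRP4A was called higher in amiCYG12 than in the wild type in all 3 incubations, with 2.41, 1.14 and 1.12 FPKM in amiCYG12 against 0.563, 0.454 and 0.371 FPKM in the wild type. It was also called higher in amiCYG12 after anoxia than in each aerated group. Cre05.g237200, Cre05.g238290, Cre12.g529450, DRP3 and MSC1 were called in none of the 9 comparisons.

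Genes for plastid protein import and for the cytoskeleton were read beside them. Of 9 import genes found (TIC and TOC symbols), 2 were called higher in amiCYG12 than in the wild type after aerated darkness, TOC34 (1.33) and SDR22/TIC32/TIC32-1 (0.92), against 8.2% of all loci tested. None was called in amiCYG12 between aerated darkness and the standard incubation, while in the wild type TOC34 (-0.98), TOC75 (-0.97) and TIC110 (-0.95) were called lower, 3 of 8 tested against 6.75%. After anoxia against the standard incubation 3 of 9 were called lower in amiCYG12, against 15.7% of all loci tested, TOC34 (-1.42), TIC40 (-0.89) and SDR22/TIC32/TIC32-1 (-0.87). In the wild type 5 of 8 tested were called lower, against 15.9%, namely TOC34 (-1.91), TIC40 (-1.37), TIC21 (-1.22), TOC75 (-1.01) and TIC22 (-0.96). After anoxia against aerated darkness 4 of 9 were called lower in amiCYG12, against 12.9%, namely TOC34, TOC75, TIC110 and SDR22/TIC32/TIC32-1, and 1 of 8 tested, TOC34, in the wild type, against 7.96%. Between the strains after anoxia TOC34 (0.92) was called higher and TIC110 lower in amiCYG12.

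Of 8 loci for tubulins, the eukaryotic relatives of FtsZ, and a septin, TUA1, TUB1, TUA2 and TUB2 were called lower in amiCYG12 after aerated darkness than in the standard incubation, 4 of 8 against 9.78% of all loci tested; of the FtsZ genes FTSZ1 was called higher in that comparison and FTSZ2 was not called. TUA1 had 80.4 FPKM after aerated darkness and 312.8 FPKM in the standard incubation of amiCYG12. After anoxia against the standard incubation TUB2 was called lower in both strains and TUB1 in amiCYG12, TUB2 was called lower in the wild type after aerated darkness than in the standard incubation, and TUA1 was called higher in amiCYG12 after anoxia than after aerated darkness. SEP1, the septin, was called lower after anoxia than in each aerated group of both strains, at 0.940 FPKM in amiCYG12 and 0.533 FPKM in the wild type against 11.2 to 18.3 FPKM in the aerated groups. TUG1, gamma tubulin, was the only one of the 8 called between the strains, higher in amiCYG12 by 1.18 after anoxia, 1.27 after aerated darkness and 0.93 in the standard incubation. By their locus names TUG1, EZY8/DRP4A, RFC4 and CYCD3, the listed loci called between the strains in the standard incubation, are all on chromosome 6. MCM3, CDC45, CDC6, CDKG1, CYCD2 and MAT3 of the mitotic cycle and replication list and TOC34 are on it too. None of the 6 plastid division genes is. Whether the strain differences of these listed loci go with that chromosome was not tested.

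The 6 genes lie on 4 chromosomes, with FTSZ1 and FTSZ2 on chromosome 2 and MIND1 and ARC6 on chromosome 12. Of the 12 loci next to them 11 were measured. In amiCYG12 after anoxia against aerated darkness 1 of these was called lower, Cre12.g522900 beside MIND1, and 3 were called higher, Cre02.g118650 beside FTSZ1, FAP129 beside MINE2 and VSP3 beside ARC6, with 12.9% of all loci tested called in each direction. In the wild type after anoxia against the standard incubation 1 was called lower, Cre02.g142206, which lies 51 bases from FTSZ2, where 15.9% of all loci tested were. Another 3 were called higher there, Cre12.g523000 beside MIND1 and Cre12.g488550 and VSP3 beside ARC6, where 11.5% of all loci tested were. Between the strains after aerated darkness none was called higher in amiCYG12, and Cre02.g118550 beside FTSZ1 was called lower, as were 10.8% of all loci tested. The unmeasured neighbour was ORC2, a subunit of the origin recognition complex, 120 bases from MINE2 and below 1 FPKM in every group, at 0.344 FPKM in amiCYG12 and 0.0889 FPKM in the wild type after aerated darkness. Neighbours of MINE1, MINE2 and ARC6 lie within 10 bases of them, and whether counting used the strand of the reads is not stated in the labels or the table.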

How the data were processed

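Total RNA of 12 Chlamydomonas cultures was selected for poly(A) tails and made into stranded libraries, per the labels' protocols. Reads were mapped to genome version 5.5 of Phytozome release 11 and quantified with Cufflinks and Cuffdiff, per the file headers; CASAVA 1.8.2, Bowtie2 2.0.5, TopHat2 2.0.6, SAMtools 1.2 and Cufflinks 2.1.1 are named in the submitters' processing notes. The authors deposited 1 pooled FPKM value per transcript and group. For 9 comparisons the authors deposited log2 fold changes without a pseudocount, p-values and q-values. Their log2 values equal the log2 of the FPKM ratios for the 6 genes to within 1e-05. No values per library were used, so depth is unknown and no test was added. File coordinates were raised by 1 at the start, which matched the RefSeq annotation of assembly Chlamydomonas_reinhardtii_v5.5 for 6 of 6 genes.

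The most expressed transcript stood for each of 17741 loci, and a locus counts as measured where a group had at least 1 FPKM. Shares of all loci tested are over measured loci. Changes computed here are log2 of the ratio of FPKM + 1 (pandas 2.3.3, numpy 2.4.6, Python 3.11.15), which understates changes of low genes; folds are plain FPKM ratios. The functions were tested on simulated data. The genes and lists were chosen with earlier results of these data known. Named beside the 6 genes were the 3 nearest profiles of each (at least 5 FPKM, with a symbol) and all dynamin relatives. Up to 4 called genes per list and comparison with the largest changes were named too. Neighbours, genes said to go the other way and listed loci on chromosome 6 were named after their values were seen. Alternatives were another pseudocount, another minimum, a stricter q, summed transcripts and rescaling.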

Additional observations from a re-analysis of the deposited data

Results flagged for a closer look

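The change from the standard incubation to aerated darkness went in opposite directions in the strains for each of the 6 genes, higher in the pooled value of amiCYG12 and lower in that of the wild type. The difference of these changes, amiCYG12 minus wild type on the log2 scale of FPKM + 1, was 1.37 for FTSZ1, 1.03 for FTSZ2, 1.96 for MIND1, 1.83 for MINE1, 1.55 for MINE2 and 0.86 for ARC6. It was not tested, since the table holds no values per library, and the genes were chosen with this pattern known.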

How the results depend on the processing

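No paired analysis was possible because the table holds 1 pooled value per group, and for the same reason leaving out a replicate could not be run. With a minimum of 5 FPKM in 1 of the groups compared, anoxia against aerated darkness left 3 called genes in amiCYG12 (18.0% of all loci tested under this minimum were called lower) and 0 in the wild type (11.5%). Anoxia against standard left 1 in amiCYG12 (25.5%) and 1 in the wild type (26.2%), and amiCYG12 against the wild type left 3 after aerated darkness (8.85% called higher) and 0 after anoxia (7.01%). Only FTSZ1, MIND1 and MINE1 reached that minimum in amiCYG12 after aerated darkness, and only MIND1 did in the 2 standard groups. No gene reached it in any other group. The counts of 3 and 1 therefore hold every gene that could be counted. Both counts of 0 were fixed by the minimum and say nothing about the calls. At a q of at most 0.01 the counts for anoxia against standard were 1 in amiCYG12 (10.1% of all loci tested called lower) and 3 in the wild type (10.5%). The other counts under these 2 settings stayed within 1.5 times, as did all counts without MINE2 and ARC6, an alternative chosen after seeing the data. Having no minimum, taking calls from any transcript of the locus and summing transcripts could not change a value, since all 6 genes passed the minimum and have 1 transcript each. A pseudocount of 0.1 moved 26 of 54 log2 changes by over 0.58, by up to 1.96, and rescaling to a common median ratio moved none by over 0.14; neither changed a sign. The low levels and the unknown depth limit what the smallest values, those of the wild type after anoxia, can show.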
